A study of Mus musculus with 6 samples.

Results

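The genes described here encode acetylcholine receptors: the 5 muscarinic receptors Chrm1 to Chrm5, and the nicotinic subunits Chrna3, Chrna4, Chrna7, Chrnb2 and Chrnb4. They were found by gene symbol, 1 row per Ensembl ID, and make up 10 of the 22584 genes in the table. The muscarinic set is complete, while the nicotinic set holds 5 of the 16 subunit genes measured. Total RNA was sequenced from mouse tissue labelled brain, of the genotype WT (wild type), with no age, sex or strain given. In 3 libraries (AllPrep) the RNA was isolated with the AllPrep DNA/RNA/Protein Mini Kit, a co-extraction kit, and in 3 control libraries (TRIzol) with TRIzol Reagent, a phenol-based lysis reagent, and isopropanol. The study compares the readouts of these extraction routes. The labels do not say whether libraries of a method came from separate mice or which brain pieces were used, so each p-value below rests on library-to-library spread that could be technical alone.

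Acetylcholine acts in brain through 2 receptor families. Muscarinic receptors are single proteins that signal through G proteins: Chrm1, Chrm3 and Chrm5 couple to Gq, which activates phospholipase C, and Chrm2 and Chrm4 couple to Gi, which lowers cyclic AMP and opens potassium channels. Nicotinic receptors are pentameric ion channels gated by acetylcholine: the subunits of Chrna4 and Chrnb2 form the main high-affinity nicotine site of the forebrain, that of Chrna7 can form a channel alone, and those of Chrna3 and Chrnb4 join in autonomic ganglia and in the medial habenula.

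Library totals ran from 36395330 to 50937858 counts, so that 3 counts correspond to between 0.0589 and 0.0824 CPM (a gene's count per 1000000 counts of its library). The labels name no molecular identifiers, so counts are read as reads and not as independent molecules, and limits from counts cover counting error only. Brain cell markers were present in every library: the summed levels were those of astrocytes (4115 to 5162 CPM over 7 genes), of cortical and hippocampal excitatory neurons (2943 to 4423 CPM over 7 genes) and of microglia (258 to 297 CPM over 7 genes). The libraries were not of equal make-up. The 7 choroid plexus markers all rose in AllPrep, from a summed 17.5 to 26.2 CPM in TRIzol to between 611 and 1229 CPM, and 7 oligodendrocyte markers, none called, summed to 5758 to 6796 CPM in TRIzol and 3034 to 5378 CPM in AllPrep. In edgeR, 621 of 16325 tested genes changed between the methods at an adjusted p below 0.05, which is 3.80% of them, 412 higher (2.52% of tested genes and 66.3% of the calls) and 209 lower (1.28%). With scaling by library size alone 52.9% of calls were higher.

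None of the 10 receptor genes passed the test between the extraction methods, where 3.80% of tested genes did. All 10 passed the filter on low counts. The count was 0 in edgeR's quasi-likelihood test, in limma-voom (3.94% of tested genes called), in limma-trend (4.10%) and in DESeq2 (12.8%). It was also 0 in the 6 edgeR fits that left out a library, but these called between 0.012% and 1.24% of tested genes, so that a count of 0 among 10 there says nothing of stability. At an unadjusted p below 0.05 in edgeR there were 2, Chrm3 and Chrm4, where 25.8% of all tested genes reached that level. The log2 fold changes of AllPrep over TRIzol were positive for 6 of the 10 genes, with a median of 0.20, beside 48.5% positive and a median of -0.01 over all tested genes. The sum of all 10 genes was 404, 434 and 450 CPM in TRIzol replicates 1 to 3 and 444, 439 and 455 CPM in AllPrep replicates 1 to 3. These sums lay close together, while single receptors differed by up to 7.30-fold between libraries. The widest range was that of Chrna3, which averaged 3.53 CPM and weighs little in the sum. Chrm1, Chrnb2, Chrm3 and Chrna4 made up most of the sum and ranged only 1.36-fold to 1.67-fold between libraries.

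**Figure D1:**
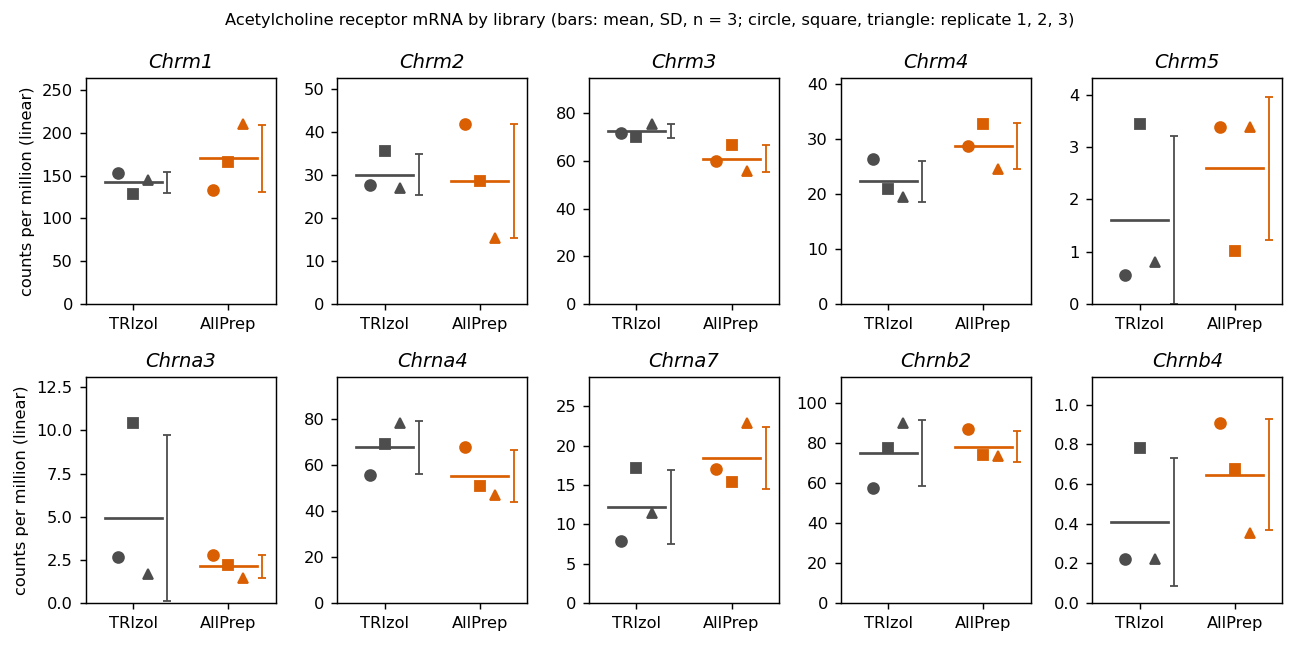
CPM of the 10 receptor genes in each library, 1 panel per gene with its own linear axis from 0. Horizontal bars are the mean of 3 libraries per method and the error bars their SD, drawn no lower than 0; Chrm3 is the only panel in which the methods do not overlap.

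Among the Gq-coupled receptors, Chrm1, the main muscarinic receptor of cortical and hippocampal pyramidal neurons, had the highest level of the 10, in CPM and per kb of exon. It had 153, 129 and 145 CPM in TRIzol replicates 1 to 3 and 133, 166 and 211 CPM in AllPrep replicates 1 to 3. AllPrep replicate 3 was the high library, and the methods overlapped. The difference (log2 fold change 0.29, SE 0.17) was not called (adjusted p = 0.31, edgeR), and its 95% interval from limma-trend ran from -0.12 to 0.66, or 0.922-fold to 1.58-fold. The library with the highest Chrm1 also had the highest summed level of 7 cortical and hippocampal excitatory markers, at 4423 CPM. In the other libraries these markers summed to 3522, 3414 and 3555 CPM in TRIzol and to 2943 and 3937 CPM in AllPrep replicates 1 and 2. None of the 7 was called, none was at 0, and their part in the Chrm1 level was not tested.

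Chrm3, another Gq-coupled receptor, known from smooth muscle and glands as well as from brain, had the narrowest range of the 10, 1.36-fold from its lowest to its highest library. It had 71.7, 70.2 and 75.7 CPM in TRIzol and 60.1, 66.9 and 55.8 CPM in AllPrep. It was the 1 receptor gene whose libraries did not overlap, lower in 3 of 3 AllPrep libraries. Among all tested genes 34.0% did not overlap, 20.6% lower and 13.4% higher in AllPrep, so 1 of 10 is not above the background. The log2 fold change was -0.22 (SE 0.087, adjusted p = 0.17 in edgeR), and the interval of -0.42 to -0.018 left out 0, as it did for 26.0% of all tested genes. A reduction of Chrm3 to below 0.747-fold lay outside that interval.

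Chrm5, the Gq-coupled receptor of midbrain dopamine neurons, was scarce and uneven. It had 0.550, 3.45 and 0.800 CPM in TRIzol (20, 133 and 36 counts) and 3.39, 1.01 and 3.38 CPM in AllPrep. The libraries fell near 3.4 CPM in TRIzol replicate 2 and AllPrep replicates 1 and 3, and near or below 1 CPM in the rest, so that each method held both levels. The log2 fold change of 0.74 (SE 0.71, adjusted p = 0.55 in edgeR) became 1.96 without TRIzol replicate 2 and was 0.34 without TRIzol replicate 1. Its interval, -0.69 to 2.63, was the widest of the 10.

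Of the Gi-coupled receptors, Chrm4 is known for its place on striatal projection neurons, where it opposes dopamine signalling. It had 26.3, 20.9 and 19.4 CPM in TRIzol and 28.7, 32.8 and 24.5 CPM in AllPrep. AllPrep replicates 1 and 2 lay above every TRIzol library, and AllPrep replicate 3 lay below TRIzol replicate 1. The log2 fold change was 0.40 (SE 0.15, adjusted p = 0.15 in edgeR). The interval of 0.050 to 0.75 left out 0, as it did for 26.0% of all tested genes. The 10 striatal projection neuron markers, all with positive log2 fold changes and none called, summed to 836, 433 and 191 CPM in TRIzol and 1140, 1291 and 431 CPM in AllPrep. Both the markers and Chrm4 were highest in AllPrep replicate 2, followed by AllPrep replicate 1 and TRIzol replicate 1, and both were lowest in TRIzol replicate 3. No striatal marker was at 0 in any library, and their part in the Chrm4 difference was not tested.

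Chrm2, which serves as a presynaptic autoreceptor of cholinergic terminals, varied more within AllPrep than between the methods. It had 27.6, 35.6 and 26.98 CPM in TRIzol and 42.0, 28.6 and 15.4 CPM in AllPrep. The highest and the lowest of the 6 libraries were both AllPrep. The log2 fold change was -0.039 (SE 0.31, adjusted p = 0.95 in edgeR), and it turned positive without TRIzol replicate 2 (0.089) or without AllPrep replicate 3 (0.26). The interval of -0.88 to 0.61 leaves changes of up to 0.543-fold and 1.52-fold possible. In bulk tissue, fewer cells of a type and less RNA per cell cannot be told apart for any of these receptors.

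**Figure D2:**
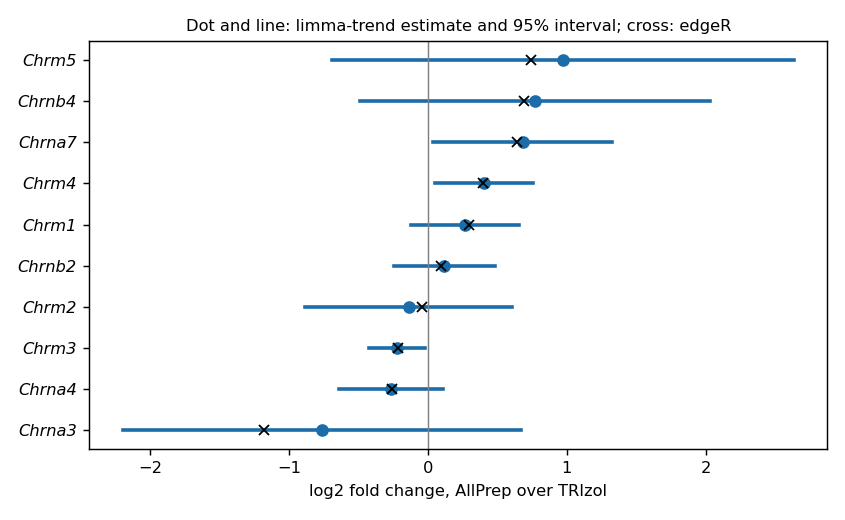
Log2 fold change of AllPrep over TRIzol for each receptor gene, ordered by the limma-trend estimate (dot) with its 95% interval (line); crosses mark the edgeR estimate. The intervals of Chrm3, Chrm4 and Chrna7 leave out 0, as do those of 26.0% of all tested genes, and no receptor gene passed an adjusted p of 0.05.

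The nicotinic genes Chrna4 and Chrnb2, whose products assemble together, had the highest CPM of the nicotinic genes, also per kb of exon. Chrna4 had 55.8, 69.1 and 78.6 CPM in TRIzol and 68.1, 50.9 and 47.0 CPM in AllPrep (edgeR log2 fold change -0.26, SE 0.16, adjusted p = 0.35, interval -0.64 to 0.11). Chrnb2 had 57.3, 77.3 and 90.3 CPM in TRIzol and 87.2, 74.2 and 73.5 CPM in AllPrep (edgeR log2 fold change 0.097, SE 0.16, adjusted p = 0.73, interval -0.25 to 0.48). Both were highest in TRIzol replicate 3, and the methods overlapped for both. The sign for Chrnb2 was not stable: it was -0.059 without TRIzol replicate 1 and -0.036 with trends on transcript length and GC removed. In GENCODE vM21, 16.3% of the Chrnb2 exon length lies opposite exons of Adar. Whether counting used strand is not given in the sources used here, so some reads may belong to Adar.

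Chrna7, whose product forms the alpha-bungarotoxin-binding channel of hippocampus and cortex, had 7.86, 17.2 and 11.5 CPM in TRIzol. In AllPrep it had 17.1, 15.4 and 22.9 CPM. AllPrep replicate 3 was the highest library and TRIzol replicate 1 the lowest, while TRIzol replicate 2 lay among the AllPrep values. The log2 fold change was 0.64 (SE 0.28, adjusted p = 0.20 in edgeR). The interval of 0.040 to 1.33 left out 0, as it did for 26.0% of all tested genes. Leaving out TRIzol replicate 1 gave 0.41 and leaving out TRIzol replicate 2 gave 0.96. The estimate was positive in each of the 16 alternative analyses, which refit the same libraries. Over all receptor genes 154 of 159 such values kept their direction, so a stable sign was not particular to Chrna7.

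Chrna3 and Chrnb4 encode the alpha and beta subunits of the ganglionic receptor. Their genes are neighbours in a cluster in which Chrna3 lies between Chrna5 and Chrnb4 (RefSeq order, GRCm38.p6). Within each method Chrna3 and Chrnb4 were highest in the same library, TRIzol replicate 2 and AllPrep replicate 1. Their ratio did not overlap between the methods, on few Chrnb4 counts, and their promoters are shown for that reason. Each runs from 250 bases before to 50 bases after the annotated start, from RefSeq on GRCm38.p6, minus strand, Chrna3 at chr9:55026513-55026812 and Chrnb4 at chr9:55048495-55048794, with any GC box (GGGCGG on either strand) in capitals.
Chrna3: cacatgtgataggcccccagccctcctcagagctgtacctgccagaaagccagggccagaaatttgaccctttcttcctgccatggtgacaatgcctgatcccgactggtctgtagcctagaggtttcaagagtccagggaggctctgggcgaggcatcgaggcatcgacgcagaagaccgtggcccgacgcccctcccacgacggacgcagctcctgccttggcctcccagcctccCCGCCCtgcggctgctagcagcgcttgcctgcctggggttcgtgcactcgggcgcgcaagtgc
Chrnb4: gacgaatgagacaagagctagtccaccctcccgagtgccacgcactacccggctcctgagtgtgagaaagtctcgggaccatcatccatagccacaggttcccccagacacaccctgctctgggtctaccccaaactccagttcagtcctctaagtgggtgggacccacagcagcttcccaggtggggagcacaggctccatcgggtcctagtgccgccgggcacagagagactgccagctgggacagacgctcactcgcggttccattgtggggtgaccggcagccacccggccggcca
The Chrna3 window holds 1 GC box and that of Chrnb4 holds 0. Such a box was present in 35.7% of the 32851 RefSeq promoter windows of this length and in 6 of the 9 receptor genes with an entry. A match describes these letters and is not evidence of a site.

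Chrna3 had 2.67, 10.5 and 1.67 CPM in TRIzol (97, 403 and 75 counts) and 2.75, 2.20 and 1.43 CPM in AllPrep. TRIzol replicate 2 stood apart from the other 5 libraries, which lay within 1.43 to 2.75 CPM. That library set the estimate: the log2 fold change was -1.18 (SE 0.65, adjusted p = 0.29 in edgeR) with it and 0.00068 without it. Chrnb4 had the lowest level of the 10, in CPM and per kb of exon, at 0.220, 0.779 and 0.222 CPM in TRIzol (8, 30 and 10 counts) and 0.909, 0.674 and 0.353 CPM in AllPrep (40, 26 and 18 counts). Its log2 fold change was 0.69 (SE 0.59, adjusted p = 0.49 in edgeR) and reached 1.55 without TRIzol replicate 2. At these counts and this spread among libraries, a change of 0.713-fold to 4.08-fold could not be separated from none.

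The high Chrna3 in TRIzol replicate 2 came with high levels of other nicotinic subunits and of 6 of 7 marker genes of midbrain dopamine neurons, which are known to carry receptors built from Chrna6 and Chrnb3. Chrna6 had 1.15, 39.4 and 1.38 CPM in TRIzol and 7.59, 1.63 and 0.432 CPM in AllPrep. Chrnb3, its neighbour on the chromosome, had 2.83, 15.3 and 3.29 CPM and 5.71, 2.13 and 1.22 CPM. Both were highest in TRIzol replicate 2 and next in AllPrep replicate 1. Without TRIzol replicate 2 the log2 fold change of Chrna6 went from -2.09 (adjusted p = 0.40) to 1.35 (adjusted p = 0.48, edgeR). The dopamine transporter Slc6a3 was also highest in these 2 libraries, with 0.550, 97.4 and 0.222 CPM in TRIzol and 43.1, 3.24 and 1.12 CPM in AllPrep. Tyrosine hydroxylase (Th), named after its values were seen, had 62.0 and 19.5 CPM in those 2 libraries and between 1.05 and 4.12 CPM in the others. The 7 dopamine neuron markers summed to 344 CPM in TRIzol replicate 2, 74.4 and 97.9 CPM in the other TRIzol libraries and 88.8 to 179 CPM in AllPrep. The seventh marker, Nr4a2, a nuclear receptor, went the other way: it had 37.2 CPM in TRIzol replicate 2, its lowest value, and 53.6 to 79.6 CPM in the other libraries. None of the 6 tested ones was called, Pitx3 was at 0 in TRIzol replicates 1 and 3 and En1 in TRIzol replicate 3, and the part of these cells in the receptor values was not tested. Chrm5 departed from the pattern in AllPrep replicate 3, where it had 3.38 CPM and Slc6a3 1.12 CPM.

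**Figure D3:**
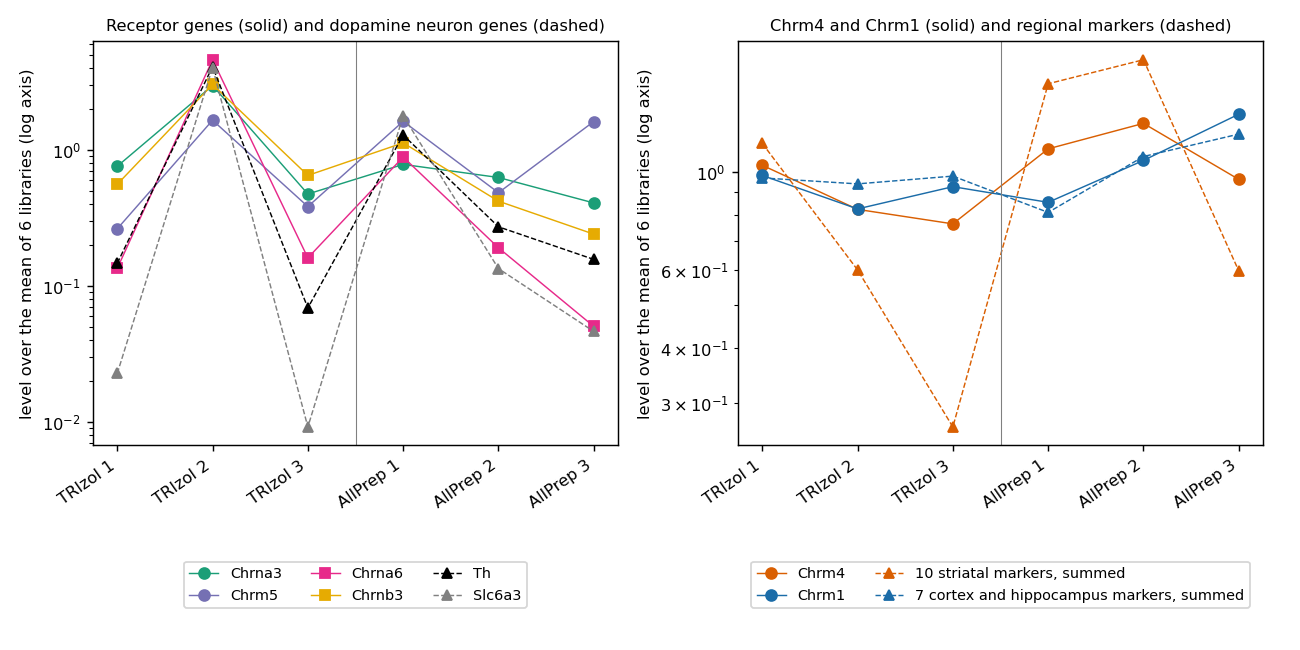
Level in each library divided by the mean of the 6 libraries, on log axes; thin lines only join the points of 1 gene or list. Chrna3, Chrm5, Chrna6, Chrnb3, Th and Slc6a3 (left) are all highest in TRIzol replicate 2, and Chrm4 and Chrm1 (right) are drawn beside the summed markers of striatum and of cortex and hippocampus.

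The genes with the nearest profiles were searched for the 3 receptor genes with the widest range, by the root mean square difference of mean-centred log2 CPM over the 6 libraries among tested genes of at least 1 CPM. For Chrna3 they were Barhl1, a homeobox transcription factor (0.24), and Sncg, encoding gamma-synuclein (0.25). Sncg had 21.7 CPM in TRIzol replicate 2 and 2.40 to 6.93 CPM in the other libraries. For Chrnb4 they were Kcnh5, a voltage-gated potassium channel (0.24), and Ntn1, encoding netrin (0.28). For Chrm5 no gene was as near: the first were H2-Ab1 (0.47), a class II histocompatibility chain, and AW551984 (0.48). With 6 libraries and so many genes compared (13635 for Chrna3 and Chrm5, 13636 for Chrnb4), near profiles are a description only.

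The spread among libraries of a method was wide for most receptor genes. The within-method SD of log2 CPM was 1.17 for Chrm5 and 1.01 for Chrna3, where tested genes at a level within 1.5-fold had medians of 0.30 and 0.23. For Chrm2 it was 0.53 against a median of 0.12 over 2948 such genes, for Chrna7 0.45 against 0.14, and for Chrnb4 0.79 against 0.46. For Chrm1, Chrm4, Chrna4 and Chrnb2 it lay between 0.23 and 0.26, with medians of 0.11 to 0.12. Chrm3 alone was at the level of its peers, with 0.11 against 0.11.

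For the order of levels in brain, CPM were divided by the exon length of each gene (kb, GENCODE vM21). This assumes that reads rise with exon length, which was not tested in these libraries, amplified by in vitro transcription. Coverage along transcripts was not checked. The order below, and the sizes of sums, shares and ratios per kb, rest on that assumption. Chrm1 was first with 24.1 ± 4.63 CPM per kb (SD, n = 6 libraries), at rank 1880 of 16219 tested genes with a length, so that 11.6% of them were higher. Chrm4 followed with 17.7 ± 3.43, Chrna4 with 12.3 ± 2.44, Chrm3 with 10.7 ± 1.20 and Chrnb2 with 9.15 ± 1.40. These 5 genes stood in the upper part of the transcriptome, with 30.5% of tested genes above Chrnb2. Chrm2 had 4.85 ± 1.48 and Chrna7 3.40 ± 1.15 CPM per kb, near the middle, with 47.0% and 55.4% of tested genes above them. Chrm5 (1.31 ± 0.902), Chrna3 (0.670 ± 0.652) and Chrnb4 (0.141 ± 0.0805) came last, with 95.8% of tested genes above Chrnb4.

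The order by mean was the same in TRIzol, in AllPrep and with any 1 library left out, but not every step of it was larger than the spread. Chrm1 was above Chrm4 in 6 of 6 libraries, Chrnb2 above Chrm2 in 6, Chrna7 above Chrm5 in 6 and Chrna3 above Chrnb4 in 6. Chrna4 and Chrm3 were not separated, with Chrna4 higher in 4 of 6 libraries and a ratio of means of 1.15. The neighbours Chrm4 and Chrna4, Chrm3 and Chrnb2, Chrm2 and Chrna7, and Chrm5 and Chrna3 each kept their order in 5 of 6 libraries.

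The places of Chrm4 and Chrm5 depend on their gene models. In this annotation the models of Chrm4 (1.44 kb) and Chrm5 (1.60 kb) hold coding sequence alone, while the other 8 include untranslated regions and run from 3.72 to 8.38 kb. Per kb of coding sequence, a measure added after the values were seen, Chrm4 was the sixth, behind Chrm1 (113 CPM per coding kb), Chrm3 (37.7), Chrnb2 (32.6), Chrna4 (30.0) and Chrm2 (21.0). Chrm5 (1.31) then came after Chrna3 (2.26). By CPM with no length Chrm4 was also the sixth and Chrm5 also below Chrna3. Chrm1 was the first and Chrnb4 the last on all of these scales.

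**Figure D4:**
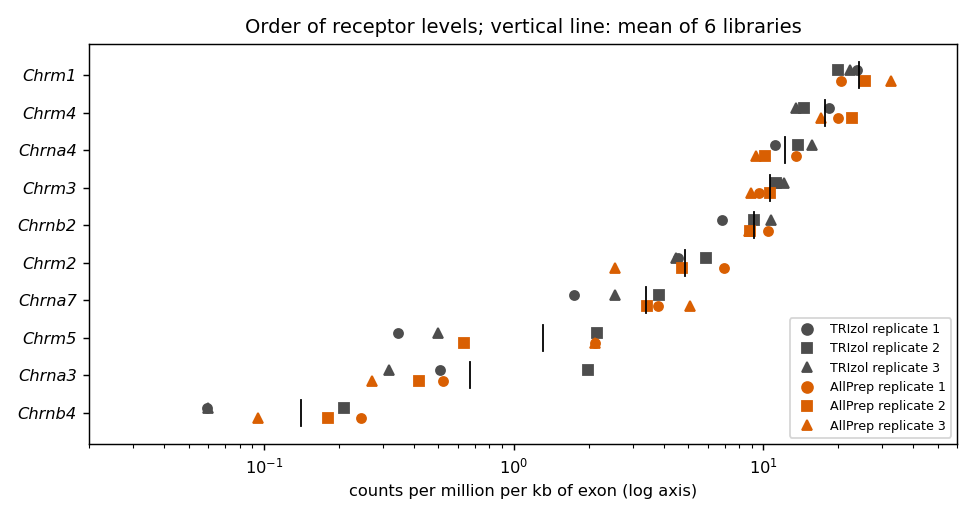
Level of each receptor gene in CPM per kb of exon, on a log axis, in 6 libraries, with the mean of the 6 as a vertical line. Chrm1 is highest in all 6 libraries and Chrnb4 lowest, and neighbours such as Chrna4 and Chrm3 interleave; the models of Chrm4 and Chrm5 hold coding sequence alone.

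Scaling of a library cancels in a ratio of receptor levels within it, but trends on transcript length and GC need not. Ratios with these trends removed were not computed. Chrna4 over Chrnb2, in CPM per kb, was 1.62, 1.49 and 1.45 in TRIzol and 1.30, 1.14 and 1.07 in AllPrep. Chrna3 over Chrnb4 was 8.57, 9.50 and 5.30 in TRIzol and 2.14, 2.31 and 2.87 in AllPrep, on 8 to 40 counts of Chrnb4. Chrm1 over Chrm3 was 2.06, 1.77 and 1.84 in TRIzol and 2.14, 2.39 and 3.64 in AllPrep. The methods did not overlap in these 3 ratios. Among single tested genes 34.0% did not overlap, and no such share was computed for ratios of other genes. The 3 ratios were picked from 6 ratios of 1 gene to another, and an exact permutation test of 3 against 3 libraries cannot go below 0.1, so no p-value is given. The other 3 ratios overlapped, among them Chrm1 over Chrm4, with 1.29, 1.37 and 1.66 in TRIzol and 1.03, 1.12 and 1.91 in AllPrep.

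**Figure D5:**
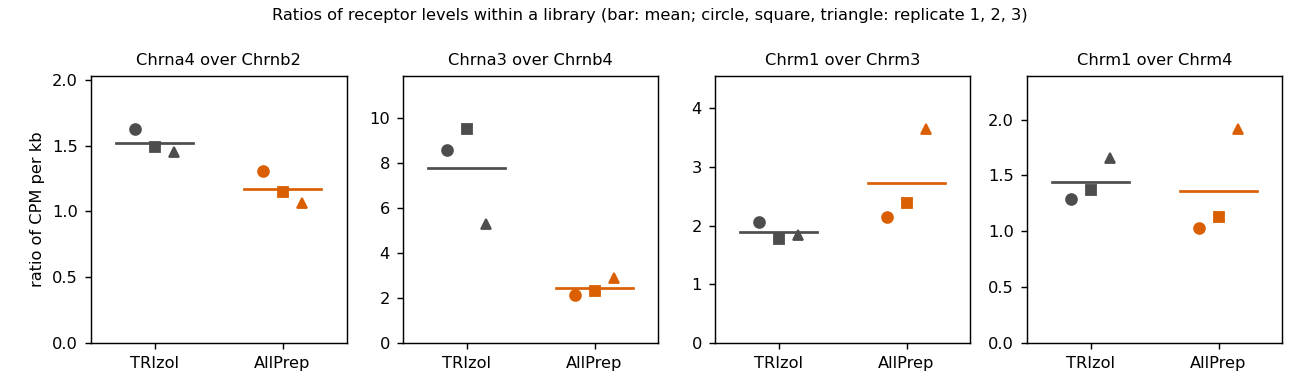
Ratios of receptor levels in CPM per kb within each library, on linear axes from 0, with the mean of each method as a bar. Chrna4 over Chrnb2 and Chrna3 over Chrnb4 are lower in all 3 AllPrep libraries, Chrm1 over Chrm3 is higher, and Chrm1 over Chrm4 overlaps.

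Summed by family, muscarinic mRNA was 58.3, 53.7 and 52.9 CPM per kb in TRIzol and 59.2, 64.4 and 63.1 in AllPrep, higher in 3 of 3 AllPrep libraries. The nicotinic genes summed to 20.2, 29.0 and 29.4 CPM per kb in TRIzol and 28.5, 23.0 and 23.6 in AllPrep. The muscarinic sum was 1.80 to 2.88 times that of these 5 nicotinic genes. This ratio assumes that reads rise with exon length, and Chrm4 and Chrm5 weigh in it by their short models. Over all 16 nicotinic genes the ratio was 2.496, 1.09 and 1.64 in TRIzol and 1.70, 2.48 and 2.42 in AllPrep, so that in TRIzol replicate 2, the library with the high Chrna6, the families lay close together (53.7 CPM per kb muscarinic and 49.4 nicotinic). In plain CPM the muscarinic sums overlapped between the methods, at 259 to 280 CPM in TRIzol and 268 to 310 CPM in AllPrep. Of the nicotinic sum, Chrna7 made up 8.61%, 13.2% and 8.69% in TRIzol and 13.3%, 14.8% and 21.6% in AllPrep, and Chrna4 54.8%, 47.4% and 53.3% against 47.6%, 44.1% and 39.7%. These shares differ in scale from levels, since a rise in 1 subunit lowers the share of another.

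Of the other 11 nicotinic subunit genes, 6 were tested and 0 called, at a median log2 fold change of -0.58 with 1 positive value. Their summed level was 68.9 CPM in TRIzol replicate 2, 10.3 and 11.02 CPM in the other TRIzol libraries and 8.13 to 21.8 CPM in AllPrep. The remaining 5, the muscle subunit genes Chrnd, Chrne and Chrng and the cochlear genes Chrna9 and Chrna10, had 0 to 16 counts per library. For Chrnd, Chrng and Chrna9, each with 0 counts in all 3 TRIzol libraries, a count of 0 allows up to 0.0667 to 0.0824 CPM per library, for counting error alone. Chrna5, in the cluster with Chrna3, had 4.53, 6.72 and 2.00 CPM in TRIzol and 2.23, 2.20 and 2.28 CPM in AllPrep (log2 fold change -0.94, adjusted p = 0.18), and was called only without TRIzol replicate 3 (-1.29, adjusted p = 0.048, edgeR).

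On the presynaptic side, none of 7 genes for acetylcholine synthesis, transport and breakdown was called (median log2 fold change 0.35, 5 positive). Ache, encoding acetylcholinesterase, had 72.4, 90.6 and 65.7 CPM in TRIzol and 107, 76.8 and 60.5 CPM in AllPrep. Slc5a7, the choline transporter, had 5.38, 10.1 and 0.978 CPM in TRIzol and 28.3, 22.6 and 2.42 CPM in AllPrep. Chat, choline acetyltransferase, had 2.23, 2.36 and 0.311 CPM and 11.5, 8.27 and 0.589 CPM. Slc5a7 and Chat were thus high in AllPrep replicates 1 and 2 and low in replicate 3 of both methods. Among 6 basal forebrain cholinergic markers, all with positive values, 1 was called higher, the homeobox gene Gbx1 (log2 fold change 4.44, adjusted p = 0.046 in edgeR), and that call was lost without any 1 library, in limma-voom (adjusted p = 0.13), with counts halved (0.052) and with length and GC trends removed (0.062). The basal forebrain markers summed to 56.5 CPM in AllPrep replicate 1, the library with the highest Chrm2, and to between 8.31 and 27.7 CPM elsewhere. The lowest sum, 8.31 CPM, was that of TRIzol replicate 2, which had the next highest Chrm2 (35.6 CPM). The part of these markers in the Chrm2 level was not tested.

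Nicotinic receptor chaperones and Ly6 proteins, which help assembly or modulate the channel at the membrane, held 1 called gene of 9 (median log2 fold change 0.14, 7 positive). Lypd1, encoding a Ly6 modulator of nicotinic receptors, rose from 23.8, 18.3 and 27.6 CPM in TRIzol to 48.6, 52.6 and 103 CPM in AllPrep (edgeR log2 fold change 1.59, SE 0.30, adjusted p = 0.039). It was higher in 3 of 3 AllPrep libraries, and its adjusted p was 0.057 to 0.10 when any 1 library was left out and 0.056 with length and GC trends removed. Lynx1, a Ly6 protein that restrains nicotinic channels, was the most abundant of the list in CPM, with 459, 484 and 535 CPM in TRIzol and 407, 403 and 296 CPM in AllPrep (log2 fold change -0.38, adjusted p = 0.12). The chaperones Ric3 and Tmem35a, which help Chrna7 channels to assemble, had log2 fold changes of 0.14 and 0.30, Ly6e, another Ly6 family gene, had 0.076, and none of these was called.

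Downstream of Chrm1, Chrm3 and Chrm5, 1 of 11 Gq pathway genes was called and 10 had positive values, with a median log2 fold change of 0.33. The called gene was Kcnq3, a subunit of the potassium channel that muscarinic stimulation closes. It rose from 153, 140 and 193 CPM in TRIzol to 276, 329 and 293 CPM in AllPrep (edgeR log2 fold change 0.92, SE 0.14, adjusted p = 0.026). The call was lost in 5 of the 6 fits that left out a library (adjusted p = 0.057 to 0.078) and with length and GC trends removed (log2 fold change 0.61, adjusted p = 0.059). The calcium release channel gene Itpr1 had a log2 fold change of 0.23 and was not called. Of 12 genes on the Gi side of Chrm2 and Chrm4, 0 were called (median log2 fold change 0.11, 8 positive). Gnao1, a Gi-family alpha subunit, had 0.23, and Adcy1, an adenylyl cyclase, had -0.0086. Kcnj6, a G protein-gated potassium channel subunit with a mean of 17.8 CPM, had 0.92 (adjusted p = 0.059, edgeR). Kcnj3 and Kcnj9, which encode further such subunits, went the other way at -0.082 and -0.23, with means of 129 and 127 CPM.

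Habenular and interpeduncular markers, cells known for Chrna3 and Chrnb4, summed to 125 to 161 CPM in TRIzol and 160 to 205 CPM in AllPrep, and 0 of 8 were called (median log2 fold change 0.12, 5 positive). Calb2 and Nwd2 made up most of these sums, and scarcer markers went opposite ways. Tac2 had a log2 fold change of 1.53 (adjusted p = 0.053, edgeR) and Pou4f1 one of -1.72 (adjusted p = 0.16, edgeR). Pou4f1 had 3.35, 4.02 and 0.444 CPM in TRIzol and 0.648 to 0.887 CPM in AllPrep. Its highest library was TRIzol replicate 2, as for Chrna3, but it was nearly as high in TRIzol replicate 1, where Chrna3 had 2.67 CPM. Gng8 was also highest in TRIzol replicate 2 (1.58 CPM). Gpr151 was at its lowest there (0.415 CPM), and Tac2 (2.18 CPM) and Htr5b (0.753 CPM) were near their lowest. The part of these markers in the Chrna3 level was not tested. Thalamic markers, of a region known for Chrna4, summed to 198, 284 and 950 CPM in TRIzol and 417, 429 and 219 CPM in AllPrep, with 0 of 6 called. TRIzol replicate 3, the library with the highest Chrna4 and Chrnb2, was also the highest for these markers, but the orders differed below it. AllPrep replicate 2 had the next highest sum and 50.9 CPM of Chrna4, and TRIzol replicate 2, with 284 CPM of markers, had 69.1 CPM of Chrna4. TRIzol replicate 1 had the lowest sum and the lowest Chrnb2 (57.3 CPM). The part of these markers in the subunit levels was not tested. No listed marker of these sets was at 0 counts over all libraries. Of the lists for other cell types, ependymal cells had 3 of 6 genes higher (7.80 to 16.6 CPM summed in TRIzol and 24.0 to 33.9 in AllPrep) and astrocytes 1 of 7, Slc1a3, a glutamate transporter (log2 fold change 0.42, adjusted p = 0.037), whose call was lost without any 1 library and with the replicate number as a block (adjusted p = 0.067). In the lists for microglia, endothelial and mural cells and meningeal fibroblasts 0 of 7 genes each were called.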

How the data were processed

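Brain RNA of 3 AllPrep and 3 TRIzol libraries was analysed, grouped by sample title and matched to columns by name. Per the labels, libraries were amplified by T7 in vitro transcription and sequenced as paired reads of 150 bases. The authors deposited whole-number counts per gene, not normalized. The submitters' processing notes list GRCm39 and, with no role or order, STAR 2.7.9a, featureCounts, FastQC 0.11.9, limma 3.60.6 and cutadapt. Tool settings and strand use: not given in the sources used here. In all, 108 repeat rows of 94 Ensembl IDs, identical in counts, were dropped, leaving 22584 IDs. Of counts from 1 to 20, 64.2% to 70.9% were even. Same-method libraries were not duplicates (chi-square of 14.3 or more per degree of freedom).

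All genes were fitted with edgeR 4.0.16 (R 4.3.3; filterByExpr, TMM, quasi-likelihood F-test, Benjamini-Hochberg over all tested genes, two-sided). The SE is the log2 fold change over the root of F. Intervals are from limma 3.58.1 (limma-trend, prior count 2). Alternatives were limma-voom, limma-trend, DESeq2 1.42.0, scaling by its size factors or by library size, 2 other filters, the replicate number as a block, halved counts (because of the even values), length and GC trends (mgcv 1.9.3) and each library left out. On simulated data for AllPrep against TRIzol with 16149 genes, edgeR recovered 28.4%, 82.1% and 93.9% of changes of 1.5, 2 and 4-fold, and 3.55% of calls were false. Exon lengths came from GENCODE vM21 (GRCm38), found for 98.4% of IDs, and no coordinates of the counted genes are used from it.

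The receptor genes and 18 gene lists (152 entries with the receptors, all matched by symbol) were chosen with earlier results of these data known. The rule named every receptor gene, and from each list the called and the 2 most abundant genes; of these, genes on which no receptor result turns are given as counts and sums. Kcnj6, Kcnj3, Kcnj9, Tmem35a, Ric3, Chat, Chrna5, Tac2, Pou4f1, Gng8, Gpr151, Htr5b and Th were named after their values were seen.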

Additional observations from a re-analysis of the deposited data

How the results depend on the processing

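In each of the 16 alternative fits 0 receptor genes were called, in fits that called between 0.012% and 12.8% of tested genes. Of 159 values of the receptor genes under these fits, 154 kept their direction. The 5 that turned were Chrm2 without TRIzol replicate 2 (0.089) and without AllPrep replicate 3 (0.26), Chrna3 without TRIzol replicate 2 (0.00068), and Chrnb2 without TRIzol replicate 1 (-0.059) and with length and GC trends removed (-0.036). Leaving out 1 library at a time gave log2 fold changes of -0.40 to 0.26 for Chrm2, -1.59 to 0.00068 for Chrna3 and -0.059 to 0.25 for Chrnb2. Chrna6, outside the 10, ran from -3.74 to 1.35 and turned without TRIzol replicate 2. Chrnb4 could not be fitted where a gene had to reach 1 CPM in 3 libraries. The genes called over the whole table numbered 2095 in DESeq2 (1275 higher, 820 lower) and 270 with length and GC trends removed (140 higher, 130 lower; 51.9% higher), against 621 (412 higher, 209 lower). Leaving out 1 library gave 2 to 205 calls, 2 to 137 of them higher and 0 to 68 lower, with 147, 2 and 205 calls without TRIzol replicates 1, 2 and 3 and 13, 27 and 28 without AllPrep replicates 1, 2 and 3; the cause was not tested. With the replicate number as a block there were 236 calls (195 higher, 41 lower). The numbers are not shown to pair the libraries: deviations of same-numbered libraries from their method means correlated at -0.05, 0.01 and 0.16 over genes, and TRIzol replicates 1 and 2 correlated best with another number. In the order of levels, 6 of 10 receptor genes kept their rank with the longest transcript as length, 3 with CPM and no length, and 3 per coding kb. With TMM scaling the summed level of AllPrep minus TRIzol was 29.2 CPM for the muscarinic genes (22.2 without) and -1.62 CPM for the nicotinic (-5.42 without), and 1 receptor gene still had no overlap. The receptor genes with the fewest counts were Chrnb4, with 8 to 40 per library, and Chrm5, with 20 to 172; the spread of Chrm5 was above that of most genes at its level. Changes near 1.5-fold were mostly missed in the simulated data, so that differences of that size in receptor mRNA would seldom be called with 3 libraries per method.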
